A study of Mus musculus with 3 samples.

Results

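The respiratory chain genes described here were every gene in the deposited tables whose symbol named a subunit of NADH dehydrogenase (complex I; Nduf followed by a, b, s, v or c), succinate dehydrogenase (complex II; Sdha, Sdhb, Sdhc and Sdhd), the cytochrome bc1 complex (complex III; Uqcr), cytochrome c oxidase (complex IV; Cox4 to Cox8) or ATP synthase (complex V; Atp5), together with the protein-coding genes of mitochondrial DNA. Pseudogene-like names were left out, which removed 1 gene, Ndufb1-ps. The rule found 106 of 32285 genes, of which 93 were nuclear and 13 were encoded by mitochondrial DNA. The nuclear genes comprised 36 of complex I, 8 complex I assembly factors (Ndufaf), 4 of complex II, 8 of complex III, 20 of complex IV and 17 of complex V. Ndufa4 and Ndufa4l2, named after complex I, were counted with complex IV, where the Ndufa4 protein resides. The mitochondrial genes comprised 7 of complex I, 1 of complex III, 3 of complex IV and 2 of complex V.

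The study sequenced single cells from the brainstem of B6(Cg)-Tyrc-2J/J mice, an albino C57BL/6 strain, by the 10x Genomics droplet method. The 2 tumour libraries came from mice that received 100000 cells of DIPG4423, a murine line of diffuse midline glioma (a childhood tumour of the brainstem), into the brain at 6 weeks of age; the tissue was taken untreated 3 weeks later. The single normal library came from brainstem without tumour, for which the labels give no separate age or treatment. All tumour cells therefore descend from 1 line, and no tumour library has a normal counterpart from the same animal.

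Mitochondria make ATP by passing electrons from NADH and succinate through complexes I to IV to oxygen, while protons are pumped across the inner membrane and return through ATP synthase. Most subunits are read from nuclear genes and imported. A small set of hydrophobic core subunits of complexes I, III, IV and V is read from mitochondrial DNA. It is read as long transcripts that are cut into shorter messages inside the organelle. Both sets have to be matched for a complex to assemble, complex II being entirely nuclear. Neurons and glia of the brain draw on oxidative phosphorylation to different degrees, and many tumours adjust it along with glycolysis.

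Nuclear respiratory chain genes are known targets of nuclear respiratory factor 1 (NRF1), and their promoters are shown because the nuclear genes, but not the mitochondrial ones, are read from such promoters. RefSeq windows from 250 bases before to 50 bases after the transcription start (GRCm38.p6) were matched by symbol for 75 of the 93 nuclear genes, which have 80 windows. The NRF1 motif, searched on both strands as GCGCA, any base and GCGC, was in 20 of 80 windows (25%; 19 genes) and in 4.60% of all 32851 windows. The motif of YY1, another factor known at these promoters, was in 5 of 80 windows (6.25%) against 0.633% of all. The ETS motif CCGGAAGT was in 6.25% of these windows against 3.89% of all, and the hypoxia response core ACGTG was in 22.5% against 19.6%. The 4 stretches run 5′ to 3′ on the minus strand of GRCm38.p6, with each NRF1 match in capitals; the stretches of Atp5g2, Ndufa5 and Sdha end at the base before the transcription start, and that of Cox6a1 ends 81 bases before it.
Atp5g2, chr15:102671048-102671157: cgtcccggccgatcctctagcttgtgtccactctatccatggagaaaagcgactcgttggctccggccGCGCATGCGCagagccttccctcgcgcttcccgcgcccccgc
Ndufa5, chr6:24527691-24527800: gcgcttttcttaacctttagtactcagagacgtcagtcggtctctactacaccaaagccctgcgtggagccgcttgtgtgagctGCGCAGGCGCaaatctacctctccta
Sdha, chr13:74350241-74350350: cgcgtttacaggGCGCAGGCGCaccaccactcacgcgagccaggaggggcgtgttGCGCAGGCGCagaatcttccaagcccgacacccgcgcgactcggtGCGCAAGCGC
Cox6a1, chr5:115349039-115349148: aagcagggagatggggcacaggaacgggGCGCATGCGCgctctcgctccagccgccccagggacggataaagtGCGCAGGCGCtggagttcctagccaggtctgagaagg
Atp5g2 and Ndufa5 were among the 5 members with the highest log2 change between whole libraries and Cox6a1 rose there too, whereas Sdha, with 3 matches in its stretch, was not called. These 4 genes were picked for display from the 19 with a match. Calls of genes with and without a match were not compared. A match is a string of letters in a window, not a site shown to be bound.

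The 13 mitochondrial genes lie on the circular mitochondrial chromosome, 12 on the plus strand and mt-Nd6 on the minus strand (MT:13552-14070). The coding sequences of mt-Atp8 and mt-Atp6 overlap by 43 bases (MT:7927-7969), which are shown because a tag lying within it cannot be assigned to either gene alone; the capitals mark the mt-Atp6 start codon.
mt-Atp8 and mt-Atp6 overlap: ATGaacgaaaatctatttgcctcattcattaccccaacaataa
mt-Nd4l and mt-Nd4 overlap by 7 bases, mt-Atp6 and mt-Co3 by 1 base, and mt-Nd5 and mt-Nd6, on opposite strands, by 14 bases. Values of mt-Atp8, the short partner in the 43-base overlap, are uncertain because of it. The overlaps of mt-Nd4l and mt-Nd6 are shorter, that of mt-Nd6 is with a gene on the other strand, and their part in the values was not tested.

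Counts were unique molecular identifiers (UMIs), tags that count original RNA molecules. After removal of cells under 500 UMIs or 300 genes, of cells with over 15% mitochondrial UMIs and of called doublets, 10550, 9407 and 3083 cells remained in tumour library 1, tumour library 2 and the normal library, with median depths of 8784, 11297 and 2395 UMIs per cell. The limit of 15% was crossed by 9.71%, 9.57% and 26.3% of barcodes, so it removed the largest share from the normal library. It also caps the mitochondrial values given below. The libraries shared at most 30 cell barcodes (0.319% of the smaller library). Clustering gave 38 clusters. A cluster was called by a type's name with "-like" if it carried at least 3 of its markers at a mean log2 score of at least 1. It stayed unnamed if its 10 leading genes held more markers of another type. It also stayed unnamed if they held no marker of its type and its median depth was over 3-fold below that of its libraries. Unnamed clusters are not part of the class values. With 2 tumour libraries against 1, an exact permutation test cannot go below 1 in 3, and the p-values below come from edgeR's quasi-likelihood test with Benjamini-Hochberg adjustment over all genes tested, with a threshold of 0.05 and the tumour pair as the source of the spread. Each difference also contains whatever sets the single normal library apart. All 5 comparisons share that library or its cells and are given side by side only.

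Respiratory chain RNA took a different share of the UMIs in each cell class. In tumour library 2, which had 11 classes of at least 50 cells, nuclear members ranged from 0.602% of UMIs in neuron-like cells to 5.97% in choroid plexus-like cells, a 9.92-fold range. In tumour library 1 the 7 classes ranged from 0.554% in neuron-like to 3.02% in glial progenitor-like cells, and in the normal library the 8 classes ranged from 0.355% in oligodendrocyte-like to 2.15% in granulocyte precursor-like cells. Neuron-like cells were the lowest class in both tumour libraries and close to the lowest in the normal library (0.365%). Without the mitochondrial limit they stayed the lowest in both tumour libraries, but their share in the normal library was 0.91%. That was above the shares of oligodendrocyte-like (0.38%), neutrophil-like (0.78%) and microglia-like cells (0.88%) there. With the limit, neuron-like cells had 97710, 111391 and 99436 CPM of the nuclear RNA Malat1 in tumour libraries 1 and 2 and the normal library. CPM are UMIs of a gene scaled to the same total in each class. Oligodendrocyte-like cells of the normal library had 190816 CPM, and glial progenitor-like cells 23406 and 23256 CPM in the tumour libraries. Astrocyte-like cells had 144642, 165896 and 176144 CPM with higher nuclear shares. The part of nuclear RNA in the low shares was not tested.

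Glial progenitor-like cells, the class marked by genes such as Pdgfra, Cspg4 and Olig2, with 4367 and 2096 cells, had nuclear shares of 3.02% and 2.97% and mitochondrial shares of 6.97% and 6.27% in tumour libraries 1 and 2. The normal library held 1 such cell, so this class has no normal counterpart. The normal library's highest nuclear share, in granulocyte precursor-like cells (2.15%), lay below both of these values under the mitochondrial limit; without it, 69 choroid plexus-like cells of the normal library had 3.83%. Macrophage-like cells had nuclear shares of 2.13% and 1.73% in the tumour libraries, T or NK-like cells 1.46% and 1.50%, and B-like cells 1.36% in tumour library 2 and 1.87% in the normal library.

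The ratio of mitochondrial to nuclear members separated the classes in another order. Among the named classes, astrocyte-like cells had the highest ratio in every library (4.44, 3.93 and 5.44 in tumour library 1, tumour library 2 and the normal library). Without the mitochondrial limit this order was lost: neuron-like cells of the normal library had 20.4 against 15.96 in astrocyte-like cells, and fibroblast-like cells of tumour library 2 had 10.3 against 5.08. Choroid plexus-like cells had the lowest ratio in tumour library 2 (0.896), with a mitochondrial share (5.35%) within the range of the other classes. Their ratio was 1.37 without the mitochondrial limit, and neutrophil-like cells, too few otherwise, were lower at resolution 2 (0.880) and at 1000 UMIs (0.724 against 0.901). Across the 63 choroid plexus-like cells thinned to 1000 UMIs each, the median was 71 nuclear and 22 mitochondrial UMIs per cell and the counts had a Spearman correlation of -0.667 across cells of that library. In oligodendrocyte-like cells of the normal library the ratio was 4.80 with a nuclear share of only 0.355%. The unnamed cluster 23, which scored for astrocyte markers, had ratios of 9.80 in tumour library 1 and 19.6 in the normal library. The ratios of glial progenitor-like (2.31 and 2.11) and microglia-like cells (2.16 and 2.11) overlapped in the tumour libraries, and those of macrophage-like cells (1.89 and 1.94) lay just below both.

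**Figure D1:**
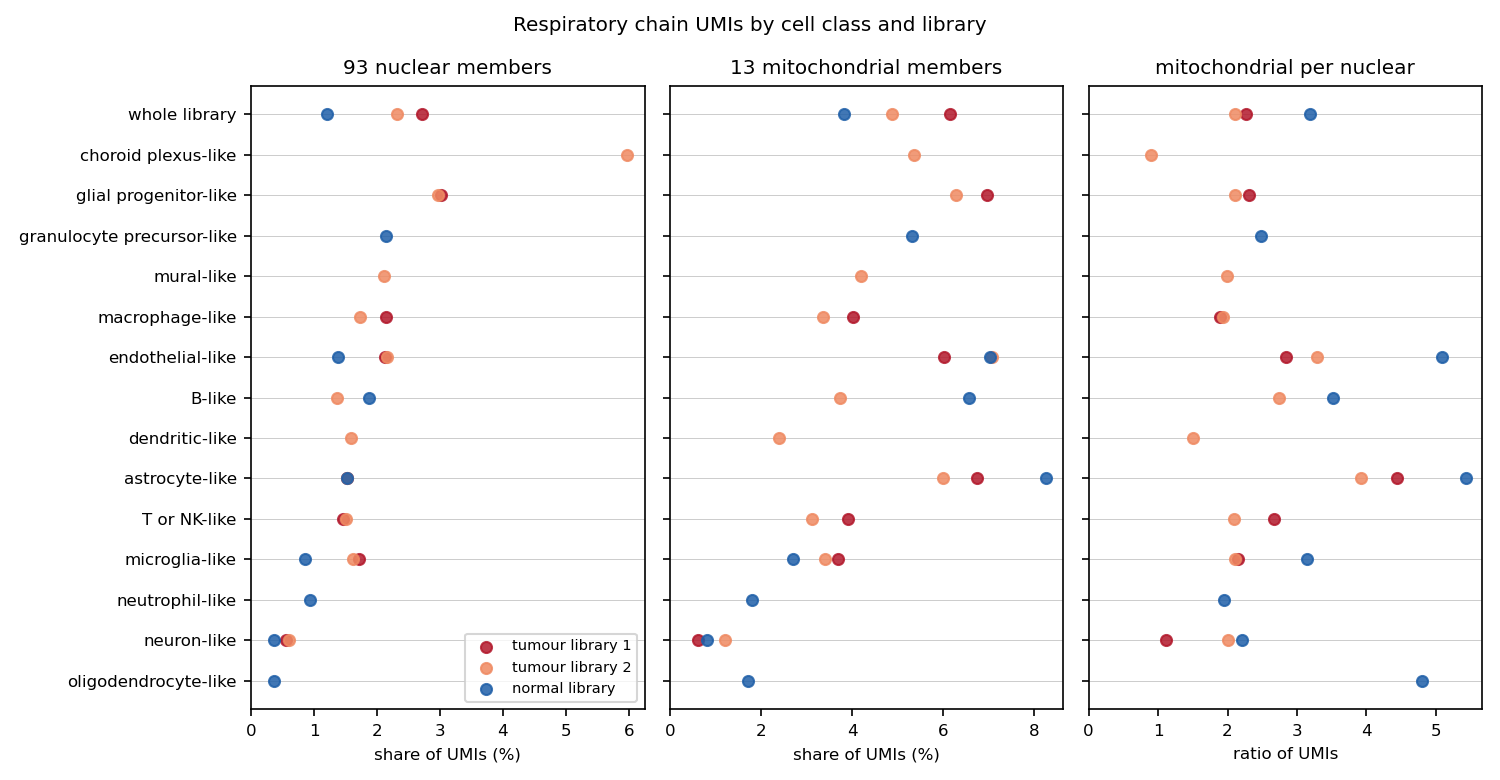
Share of UMIs taken by the 93 nuclear members (left, %), by the 13 mitochondrial members (middle, %) and the ratio of the sums (right), for the whole library and each class with at least 50 cells in a library; each point is 1 library. Nuclear shares run from 0.355% in oligodendrocyte-like to 5.97% in choroid plexus-like cells, and the ratio is lower in both tumour libraries than in the normal library for the whole library, microglia-, neuron-, astrocyte- and endothelial-like cells.

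Of the 6 clusters of the glial progenitor-like class, 5 had at least 50 cells in both tumour libraries; cluster 34, led by the interferon-response genes Ifit3 and Ifit1, had 38 and 9 cells and is given no level. The nuclear share was 3.18% and 3.10% in cluster 0, led by Pou3f1 and Olig1. In cluster 6, led by cell-cycle genes such as Cenpf and Aspm, it was 2.98% and 2.86%, and the ratio there was 2.05 and 1.88. In cluster 5, led by Prss35 and the hypoxia-inducible growth factor gene Vegfa, the nuclear share was 2.74% and 2.98% and the ratio 2.37 and 2.33. Cluster 13, led by Serpina3n, had nuclear shares of 2.75% and 2.51% and the ratios 2.65 and 2.56, the highest of the 5 clusters with at least 50 cells. Cluster 17, led by Ajap1 and Olig1, had 3.08% and 3.28%. An unnamed cluster led by Ppbp and Fabp7, with low median depth, also scored for glial progenitor markers. Its nuclear shares were higher, at 4.15% and 3.96%. Another unnamed cluster, led by Cxcl2, Il1b and Cxcr2, had the ratios 1.04 and 0.599 in the tumour libraries and 1.58 in the normal library.

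Several subunits exist as tissue isoforms, and these marked particular classes. Ndufa4l2, the hypoxia-inducible relative of Ndufa4, was at 129, 177 and 61.9 CPM (UMIs of the gene in 1000000 UMIs of the class) in endothelial-like cells of tumour library 1, tumour library 2 and the normal library, and at 285 CPM in cluster 31 of tumour library 2. Cluster 31 is plotted as mural-like from its marker score, but its leading genes were matrix genes such as Mmp3 and Col6a3. The unnamed cluster 27 of tumour library 2 (101 cells), which also scored for mural markers and was led by Bglap, Higd1b and Ndufa4l2 itself, had 620 CPM of Ndufa4l2 and 160 CPM of Cox4i2. It was at 0 in choroid plexus-like cells and, in the normal library, in every class shown except the endothelial-like one. Cox4i2, the oxygen-dependent form of subunit 4, was at 20.4, 50.3 and 41.6 CPM in endothelial-like cells and at 39.4 CPM in cluster 31. The endothelial-like class also carried mural markers, which summed to 2118, 2645 and 5939 CPM in the same order of libraries. Its endothelial markers summed to 6575, 5844 and 14820 CPM. The part of mural cells in the Ndufa4l2 and Cox4i2 levels of this class was not tested. Cox4i1, the form found in all tissues, was detected in every class.

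Muscle and testis forms were found in other classes. Cox6a2, the heart and skeletal muscle form of subunit 6a, was at 20.6, 26.8 and 12.95 CPM in microglia-like cells and at 49.4 CPM in B-like cells of the normal library, while in endothelial-like cells of the normal library it was at 0. Over whole libraries Cox6a2 was at 4.52, 7.93 and 18.3 CPM, on 203 UMIs in the normal library. The microglia-like value of the normal library thus lay below that of the whole library. Choroid plexus-like cells of tumour library 2 had 375 CPM of Cox6b2, best known from testis, 82.4 CPM of Cox8b and 58.9 CPM of Cox7a1, both muscle forms; Cox8b reached at most 2.28 CPM in the other classes shown. The glial progenitor-like class had 43.3 and 37.4 CPM of Cox6b2. Atp5g1, Atp5g2 and Atp5g3 encode the same mature c-ring subunit of ATP synthase. Choroid plexus-like cells of tumour library 2 had 2225 CPM of Atp5g1 and 770 CPM of Atp5g2. The glial progenitor-like class of tumour library 1 had 499 and 1354 CPM, so the contrast is also one between libraries. Cox7b2 (17, 2 and 9 UMIs per library in all) and Cox8c (1, 0 and 0) were close to absent at this depth.

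**Figure D2:**
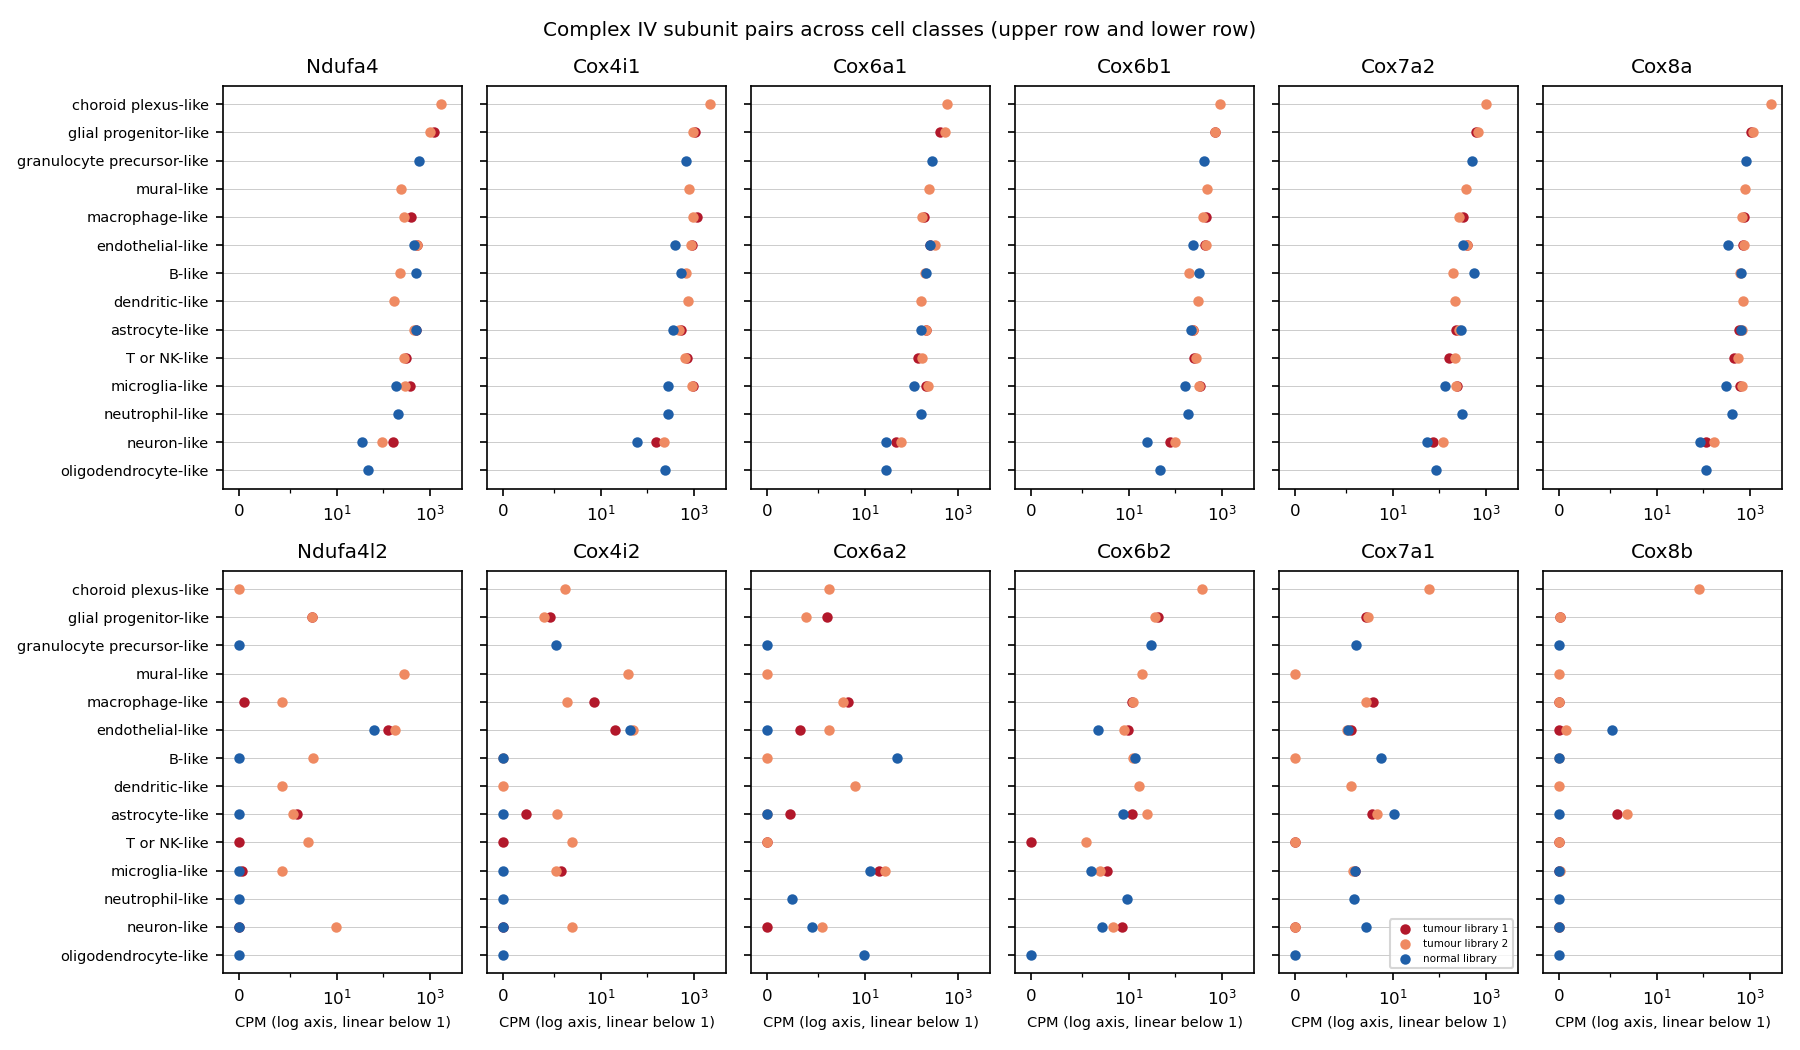
CPM of 6 widely expressed complex IV genes (upper row) and a related isoform of each (lower row) in each class with at least 50 cells; each point is 1 library, and the axis is logarithmic above 1 CPM and linear below. Among the plotted classes Ndufa4l2 and Cox4i2 stand highest in the endothelial-like class and in that plotted as mural-like (cluster 31); the unnamed cluster 27 is not plotted. Cox6b2, Cox7a1 and Cox8b stand highest in choroid plexus-like cells.

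Across whole libraries, 64 of 92 nuclear members tested rose in tumour and 0 of 13 mitochondrial members were called. The nuclear sum was 27125 and 23090 CPM in the tumour libraries and 11999 CPM in the normal library; the mitochondrial sum was 61550, 48703 and 38177 CPM. Both sums were higher in both tumour libraries under the mitochondrial limit; without it the mitochondrial share was 6.66% and 5.59% against 12.5%, a log2 difference of -1.04. With the limit, the mitochondrial-to-nuclear ratio was lower in both tumour libraries (2.27 and 2.11 against 3.18, a log2 difference of -0.54 with an SD of 0.0745 between the tumour libraries). Of 105 members tested, 64 were called higher and 0 lower by edgeR's quasi-likelihood test, where 13.1% of the 20449 genes tested were called higher and 8.36% lower. In whole libraries the mix of cell types, fewer cells of a type and less RNA per cell cannot be told apart, and the normal library had almost no glial progenitor-like cells.

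All 64 calls were nuclear, from 92 nuclear genes tested. They comprised 33 of 36 complex I genes, 3 of 4 of complex II, 5 of 8 of complex III, 12 of 19 of complex IV, 9 of 17 of complex V and 2 of 8 complex I assembly factors. The median log2 change was 1.57 for nuclear and 0.93 for mitochondrial members and 0.14 over all genes. None of the 13 mitochondrial genes passed, with 4 at an unadjusted p under 0.05 and 0.0905 as the smallest adjusted p, that of mt-Co2. DESeq2 called 75 members higher and 0 lower. Under library size without further scaling the median of all genes moved from 0.14 to -0.42, the split over all genes went from 2680 higher and 1710 lower to 1686 and 3798, and 39 members were called higher and 1, Cox6a2, lower.

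Ndufb9, an accessory subunit of the complex I membrane arm, was at 766 and 419 CPM in the tumour libraries and at 118 CPM in the normal library. Both tumour values lay above the normal value but far from each other, and the log2 change was 2.87 ± 0.48 (SE, adjusted p = 0.0183). Atp5g2 was at 1142, 964 and 237 CPM and rose by 2.70 (adjusted p = 0.0149). Ndufb8, Ndufa13 and Ndufa5, further accessory complex I subunits, followed with log2 changes of 2.64, 2.37 and 2.31. Cox4i1 was at 1065, 934 and 354 CPM and rose by 2.05.

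Core enzyme subunits did not all follow. Sdhb, the iron-sulfur subunit of complex II, was at 159, 151 and 61.4 CPM and rose by 1.89, whereas its partner Sdha, the flavoprotein that oxidises succinate, was at 91.3, 81.6 and 109 CPM with a log2 change of 0.22 (adjusted p = 0.579). Ndufs1, the largest iron-sulfur subunit of complex I, was at 60.1, 50.2 and 69.3 CPM with a log2 change of 0.22 (adjusted p = 0.586), while Ndufv1, which binds NADH, rose by 1.58. Uqcrfs1, the Rieske protein of complex III, rose by 1.75. Uqcrc1, a core protein of the same complex, and Atp5b, the catalytic subunit of ATP synthase, had log2 changes of 0.81 and 1.21 and were not called (adjusted p = 0.0905 and 0.0506). For Sdha and Ndufs1 both tumour CPM values lay below the normal value while the change fitted after TMM scaling was above 0.

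Microglia-like cells (2828, 3093 and 729 cells in tumour library 1, tumour library 2 and the normal library) had 73 of 90 nuclear and 2 of 13 mitochondrial members called higher in tumour. The nuclear sum was 17102 and 16137 CPM against 8598 CPM, and the mitochondrial sum 36873 and 33974 CPM against 27002 CPM, so that the ratio fell from 3.14 in the normal library to 2.16 and 2.11. Of 103 members tested, 75 were called higher and 0 lower, where 14.5% of 14912 genes were called higher and 7.67% lower. The nuclear calls comprised 33 of 36 genes of complex I, 3 of 4 of complex II, 6 of 8 of complex III, 13 of 17 of complex IV, 16 of 17 of complex V and 2 of 8 assembly factors. The median log2 change was 1.41 for nuclear and 0.73 for mitochondrial members and 0.10 over all genes. Under library size alone the median over all genes was -0.42 and the split over all genes went from 2166 higher and 1144 lower to 961 and 2610; 51 members were then called higher and 1, Ndufaf7, lower.

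Cox5a, a nuclear subunit that caps cytochrome c oxidase on the matrix side, was at 250 and 214 CPM in the tumour libraries and 61.7 CPM in the normal library. The tumour pair was close together and well above the normal value, and the log2 change was 2.43 ± 0.27 (SE, adjusted p = 0.000504). Cox4i1 was at 967, 919 and 279 CPM and rose by 2.28. Atp5d, a central-stalk subunit of ATP synthase, was at 217, 226 and 66.3 CPM and rose by 2.27. Ndufb8 rose by 2.35, and Cox7a2l, which helps complexes III and IV join into supercomplexes, was at 354, 393 and 115 CPM and rose by 2.23. In contrast Sdha (97.7, 84.8 and 132 CPM) and Ndufs1 (41.9, 35.9 and 57.9 CPM) had log2 changes of -0.01 and -0.06 and were not called, while Sdhb rose by 1.66. Cox6a2 rose by 1.41 (adjusted p = 0.027), on 17 UMIs in the normal library. Among the mitochondrial genes, mt-Nd1 was at 2999, 2687 and 1723 CPM and rose by 1.24 (adjusted p = 0.0394), and mt-Nd5 rose by 1.07 (adjusted p = 0.0304).

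The microglia-like class was made of different clusters in each library. Cluster 4, led by the homeostatic microglia genes P2ry12 and Tmem119, held 654 of the 729 normal cells but 67 of 2828 and 812 of 3093 tumour cells; cluster 2 held 1603 and 174 and cluster 1 held 684 and 1379 tumour cells. Within cluster 4 alone, a comparison added after seeing the data, the nuclear share was 1.16% and 1.04% against 0.821%, and the mitochondrial share was 2.41% and 2.00% against 2.55%. There 18 of 99 members tested were called higher, where 4.79% of 10403 genes were called higher and 3.1% lower. All 18 were nuclear, Cox7a2l (1.64), Ndufv1 (1.48), Ndufa8 (1.39) and Cox4i1 (1.38) having the highest log2 changes, and 3 members were called lower, mt-Nd6 (-1.47), mt-Atp8 (-1.25) and mt-Nd3 (-1.0). Ndufa8 was chosen here after its values were seen. The median log2 change in cluster 4 was 0.41 for nuclear and -0.22 for mitochondrial members, against 1.41 and 0.73 over the class.

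Several measures moved with the microglia-like result. Of 8 glial progenitor markers tested 7 were called higher, with a summed level of 173, 83.7 and 9.14 CPM in the 2 tumour libraries and the normal library (Pdgfra, Cspg4 and Olig2 at 0 in the latter); the same sum in glial progenitor-like cells was 4570 and 3990 CPM. Of 8 neuron markers tested 7 were called lower (102, 135 and 1211 CPM), and so were 8 of 10 neutrophil markers (139, 186 and 990 CPM). The 8 microglia markers themselves summed to 9672, 11430 and 25640 CPM, with 3 called lower. The nuclear RNA Malat1 was at 19296 and 17644 CPM against 52445 CPM. Depth differed as well, and after thinning to 1000 UMIs per cell the median was 13, 13 and 8 nuclear and 27, 26 and 21 mitochondrial UMIs per cell, with 121, 27 and 155 shallower cells left out; the unthinned nuclear medians were 51.5, 120 and 14 UMIs. The part of these measures in the result was not tested.

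In neuron-like cells 26 of 85 nuclear members tested rose in tumour. The nuclear sum was 5535 and 6017 CPM in the tumour libraries against 3650 CPM. The mitochondrial sum, 6159 and 12118 CPM against 8061 CPM, lay below the normal value in tumour library 1 and above it in tumour library 2. Of 98 members tested, 26 were called higher and 1 lower, where 3.34% of 10972 genes were called higher and 0.884% lower. The 26 were nuclear: 10 of complex I, 4 of complex III, 7 of complex IV and 5 of complex V. None of the 13 mitochondrial genes was called by edgeR (3 at an unadjusted p under 0.05) or by DESeq2, and the medians were 0.86 for nuclear and 0.25 for mitochondrial members and 0.02 over all genes.

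Atp5g2 was at 144 and 127 CPM in neuron-like cells of the tumour libraries and at 33.0 CPM in the normal library. Both tumour values were well above the normal value, and the log2 change was 2.10 ± 0.36 (SE, adjusted p = 1.53e-05). Ndufb9 was at 117, 72.3 and 21.7 CPM and rose by 2.17. Uqcrfs1 (log2 change 2.33), Ndufb7 (2.19) and Ndufb11 (2.09) completed the 5 with the largest increases, Uqcrfs1 on only 14, 22 and 12 UMIs. Ndufaf5, an assembly factor that modifies a complex I core subunit, was at 12.3, 7.0 and 37.8 CPM and fell by 1.94 on the log2 scale (adjusted p = 0.0198), on 7, 6 and 87 UMIs. Sdha, Ndufs1, Uqcrc1 and Atp5b had log2 changes between -0.20 and 0.09 and were not called.

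The neuron-like result depended on the processing. DESeq2 called 3 members higher (Atp5g2, Cox4i1 and Ndufb9) and 0 lower, and with library size alone edgeR called 0 in either direction, of any gene. Without the mitochondrial limit 0 members were called higher and 38 lower, and the nuclear sum was then lower in tumour (log2 difference -0.59); mitochondrial members took 18.6% of UMIs in the normal library's neuron-like cells without the limit against 0.806% with it. Of 7 glial progenitor markers tested 5 were called higher in these cells (363, 281 and 59.1 CPM summed), and of 8 neutrophil markers 6 were called lower (50.8, 152 and 1235 CPM). Their part in the result was not tested.

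In astrocyte-like cells the nuclear members did not move together, and 6 of 13 mitochondrial members fell in tumour. The nuclear sum was 15205, 15270 and 15176 CPM in tumour library 1, tumour library 2 and the normal library, within 0.01 of each other on the log2 scale. The mitochondrial sum was 67494 and 59960 CPM against 82511 CPM, a log2 difference of -0.38 with an SD of 0.121 between the tumour libraries. Of 99 members tested, 1 was called higher and 12 lower, where 3.84% of 9865 genes were called higher and 2.97% lower. The median log2 change was 0.01 for 86 nuclear and -0.40 for 13 mitochondrial members, and 12 of the 13 mitochondrial genes had both tumour CPM values below the normal one, mt-Nd5 being the exception. The edgeR fit here used a spread pooled over all genes, without a gene's own spread.

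Of the mitochondrial genes, mt-Nd3, mt-Atp8, mt-Nd6, mt-Nd4l, mt-Co3 and mt-Co1 fell. The complex I gene mt-Nd3 was at 773 and 712 CPM against 2509 CPM. Both tumour values were below the normal one by more than the gap between them, and the log2 change was -1.80 ± 0.19 (SE, adjusted p = 2.44e-18). The ATP synthase gene mt-Atp8 was at 210, 82.2 and 581 CPM and fell by 1.97, mt-Nd6 (336, 168 and 597 CPM) by 1.25 and mt-Nd4l by 0.93 on the log2 scale. The cytochrome c oxidase core genes mt-Co3 and mt-Co1 fell by 0.59 and 0.51, and their partner mt-Co2 had a log2 change of -0.20 (adjusted p = 0.576).

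The nuclear genes called in astrocyte-like cells were few. Ndufb9, at 381, 299 and 203 CPM, rose by 0.71 (adjusted p = 0.0409). Atp5mpl and Atp5md, small membrane subunits of ATP synthase, were at 115, 153 and 316 CPM and at 140.5, 179 and 310 CPM; both tumour values were lower in each case, and they fell by 1.30 and 1.02 on the log2 scale. Uqcrb, a complex III subunit near the quinone site, was at 148, 170 and 273 CPM and fell by 0.83. Ndufc1 and the assembly factor Ndufaf4 fell by 0.83 and 0.88, and Ndufb3, named after its value was seen, by 0.80. With DESeq2 only Atp5mpl, mt-Nd3, mt-Nd4l and mt-Co3 were called, all lower, and with a mitochondrial limit of 10% only Atp5mpl, mt-Nd3 and mt-Atp8. The neutrophil markers summed to 35.0, 35.4 and 1357 CPM in these cells, with 5 of 5 tested called lower, and the glial progenitor markers to 423, 389 and 310 CPM, with 2 of 6 called higher. Their part in the result was not tested.

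Endothelial-like cells again had more nuclear members called higher than lower in tumour, with mitochondrial genes in both directions. The nuclear sum was 21197 and 21499 CPM against 13783 CPM, and the mitochondrial sum 60230 and 70661 CPM against 70185 CPM. The tumour pair agreed closely on the nuclear sum and lay below and above the normal value on the mitochondrial one, and the ratio was 2.84 and 3.29 against 5.09. Of 101 members tested, 56 were called higher and 7 lower, where 21.4% of 11379 genes were called higher and 14.7% lower. The calls comprised 55 higher and 2 lower of 88 nuclear genes, and 1 higher and 5 lower of 13 mitochondrial genes. The medians were 0.94 for nuclear members, 0.02 for mitochondrial members, which turned to -0.24 under library size alone, and 0.06 over all genes; that scaling moved the split over all genes from 2435 higher and 1672 lower to 1876 and 2395.

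Sdhb was at 119 and 130 CPM in endothelial-like cells of the tumour libraries and at 35.2 CPM in the normal library. The tumour values were close together, and the log2 change was 2.09 ± 0.30 (SE, adjusted p = 5.20e-05). Sdha, its partner, was at 60.5, 75.4 and 142 CPM and fell by 0.78 on the log2 scale (adjusted p = 0.0242), a call that DESeq2 did not make. Atp5d (log2 change 2.05), Ndufb8 (1.81) and Cox5a (1.76; 453, 493 and 168 CPM) rose. Ndufaf6, a complex I assembly factor, was called with a log2 change of 3.13 on 9, 72 and 1 UMIs, and Ndufaf7, a methyltransferase acting on complex I, was at 21.7, 21.5 and 77.9 CPM and fell by 1.59. Ndufa4l2 rose by 1.58 ± 0.30 (SE, adjusted p = 0.000552) from the levels given above, while Ndufa4 and Cox4i2 had log2 changes of 0.47 and 0.13 and were not called.

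Of the mitochondrial genes in endothelial-like cells, mt-Co2 was at 11095, 11265 and 8336 CPM and rose by 0.69 (adjusted p = 0.0247). mt-Nd6 (91.1, 94.1 and 399 CPM) fell by 1.84, mt-Nd3 (823, 1125 and 3380 CPM) by 1.53, mt-Atp8 by 1.52, mt-Nd4l by 0.90 and mt-Nd2 by 0.60 on the log2 scale. Here too the clusters differed between libraries: 144 of 145 normal cells lay in cluster 24, whereas 59 of 73 and 149 of 218 tumour cells lay in cluster 25. In cluster 24 the 69 cells of tumour library 2 had a nuclear share of 1.62% against 1.38% in the normal library, and a ratio of 3.42 against 5.08; tumour library 1 had 14 cells there. The 8 endothelial markers themselves summed to 6575, 5844 and 14820 CPM with 1 called higher and 4 lower. The 9 mural markers summed to 2118, 2645 and 5939 CPM, with 3 called higher and 2 lower. Of the glial progenitor markers, 7 of 7 tested were called higher (421, 372 and 74.7 CPM). Malat1 was at 13101, 14248 and 47029 CPM. Their part in the result was not tested.

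**Figure D3:**
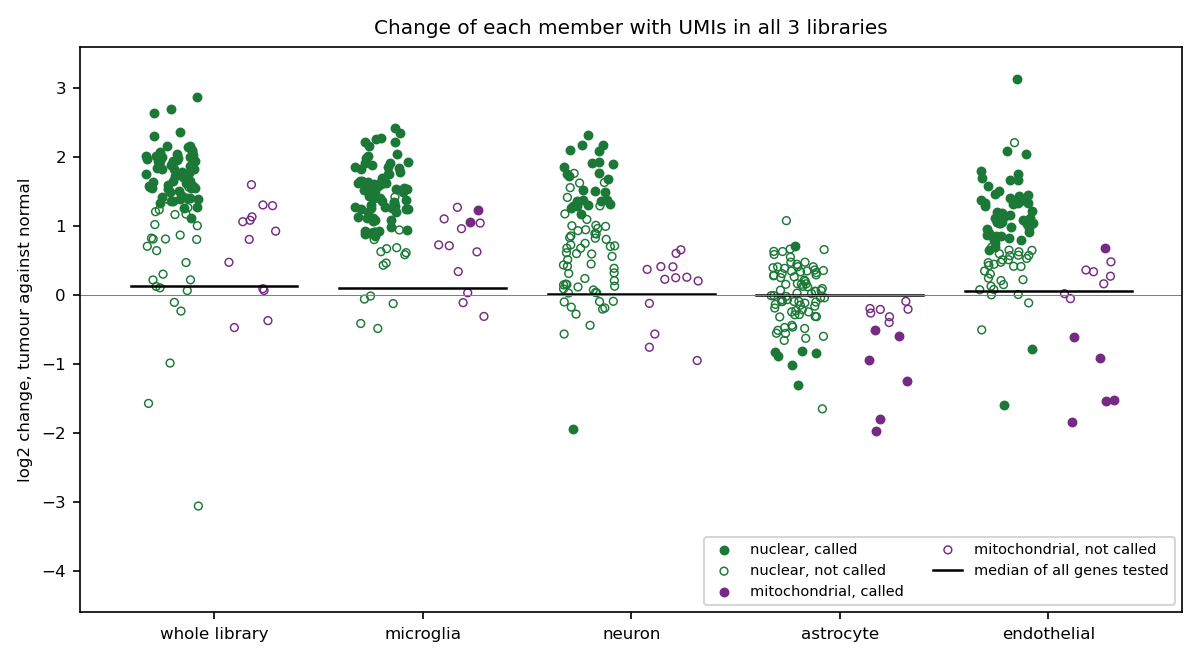
Log2 change (tumour against normal) of each member with UMIs in all 3 libraries, in 5 comparisons, for nuclear (green) and mitochondrial (purple) members; filled points passed an adjusted p of 0.05 (edgeR), and the black line is the median of all genes tested. Nuclear medians of 1.57, 1.41, 0.86 and 0.94 stand above the line everywhere except in astrocyte-like cells (0.01), where 6 mitochondrial members were called lower.

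In all 5 comparisons the mitochondrial-to-nuclear ratio was lower in both tumour libraries than in the normal library, by -0.54 (whole library), -0.56 (microglia-like), -0.56 (neuron-like), -0.38 (astrocyte-like) and -0.74 (endothelial-like) on the log2 scale. The tumour libraries differed most in neuron-like cells, with ratios of 1.11 and 2.01 against 2.21. In neuron-like cells the normal value was thus close to that of tumour library 2. No test was made of these ratios.

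Of the mitochondrial genes that fell, the 4 shortest were called in both astrocyte-like and endothelial-like cells. mt-Atp8 (204 nucleotides), mt-Nd4l (297), mt-Nd3 (348) and mt-Nd6 (519) had both tumour CPM values below the normal value in microglia-, astrocyte- and endothelial-like cells. They had the 4 lowest log2 changes of the 13 in each of these 3 classes. As shares of all mitochondrial member UMIs in whole libraries, mt-Nd3 was at 1.2% and 1.27% against 3.36%, and mt-Atp8 at 0.362% and 0.203% against 0.843%. Conversely mt-Co2 made up 17.2% and 15.5% against 11.4%. Across the 13 genes the Spearman correlation of annotated length with log2 change was 0.53 (whole library), 0.52 (microglia-like), 0.37 (neuron-like), 0.73 (astrocyte-like) and 0.56 (endothelial-like), a description over genes of the same libraries. Annotated length is that of the gene's interval on mitochondrial DNA, and the lengths of the RNAs counted were not measured. mt-Atp8 and mt-Nd4l overlap mt-Atp6 and mt-Nd4 by 43 and 7 bases, so their values are not those of separate stretches.

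**Figure D4:**
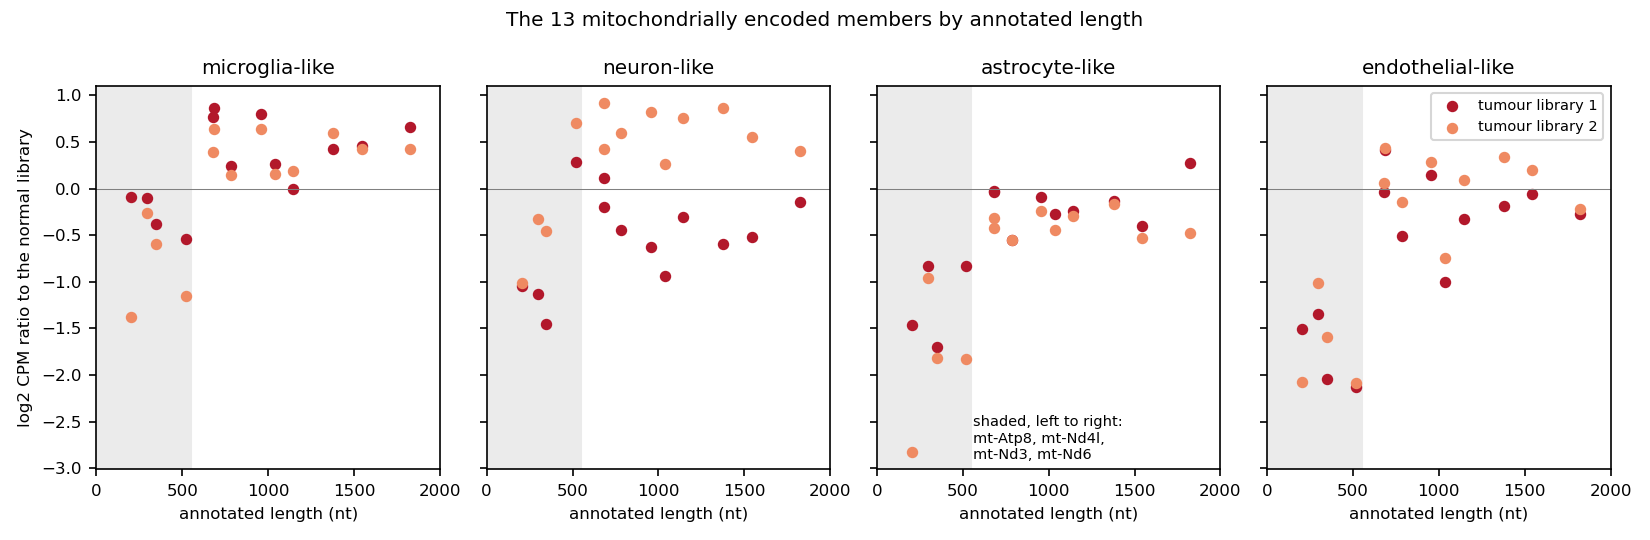
Log2 ratio of CPM in each tumour library to the normal library against annotated length (nucleotides) for the 13 mitochondrial members in 4 classes; the shaded range holds mt-Atp8, mt-Nd4l, mt-Nd3 and mt-Nd6. These 4 lie below 0 in both tumour libraries in microglia-, astrocyte- and endothelial-like cells; in neuron-like cells mt-Nd6 lies above 0.

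Nuclear members have short transcripts. In microglia-like cells other genes with transcripts under 1500 nucleotides were called higher more often than those with longer ones. Over the nuclear members tested in microglia-like cells the median length of the longest coding transcript was 913 nucleotides, against 3193 for 13102 other protein-coding genes. Among those other genes 48.6% were called higher in microglia-like cells at 500 up to 750 nucleotides, 48.9% at 750 up to 1000, 33.0% at 1000 up to 1500, 19.9% at 1500 up to 2500 and 6.90% at 5000 or more. The nuclear members of the same lengths were called more often in microglia-like cells, at 85.7%, 87.5%, 82.4% and 84.6% in the 4 ranges from 500 up to 2500 nucleotides, which held 28, 16, 17 and 13 members. In whole libraries these shares were 72.4%, 87.5%, 70.6% and 76.9% of members against 27.2%, 36.3%, 29.5% and 17.6% of other genes. Outside those ranges, 42.9% of 7 members under 500 nucleotides and 40% of 10 at 2500 up to 5000 were called higher in whole libraries, against 13.3% and 11.9% of other genes, and 15.2% of the other genes under 500 nucleotides were called lower.

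The other classes differed from this. In neuron-like cells 40%, 53.3%, 23.5% and 15.4% of members in the same 4 ranges were called higher against 32.6%, 23.0%, 12.3% and 3.47% of other genes. Endothelial-like cells had 51.9% of members against 62.0% of other genes at 500 up to 750 nucleotides, so that members were called less often there, and 75%, 76.5% and 76.9% against 57.7%, 46.3% and 26.5% in the longer ranges. In astrocyte-like cells 3.85% of members and 14% of other genes were called higher at 500 up to 750 nucleotides. The difference of these shares was not tested, and most ranges hold fewer than 20 members.

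**Figure D5:**
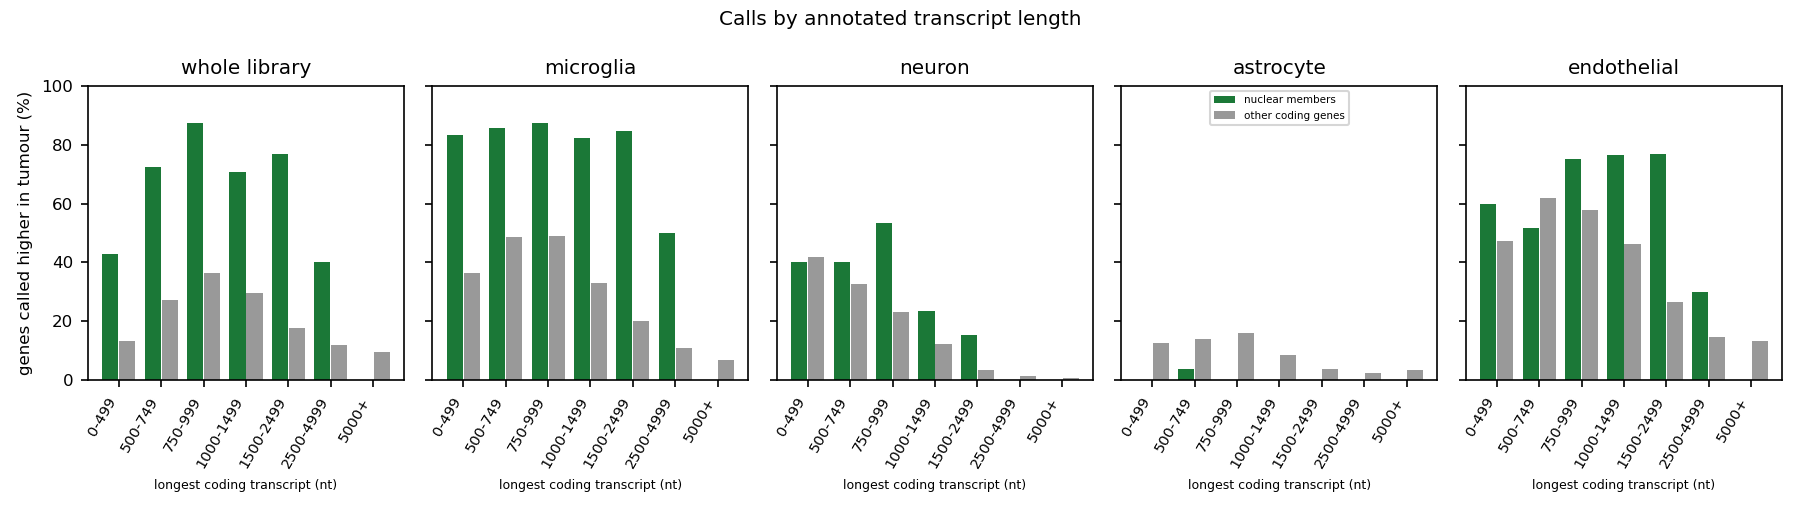
Percentage of genes called higher in tumour (edgeR, adjusted p under 0.05) by length of the longest annotated coding transcript (nucleotides), for nuclear members (green) and other protein-coding genes (grey) in 5 comparisons. In microglia-like cells other genes are called most often at 500 up to 1000 nucleotides, and nuclear members exceed them there and in each range up to 2500 nucleotides.

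Related genes outside the rule were followed through lists, whose counts stand beside 13.1%, 14.5%, 3.34%, 3.84% and 21.4% of all genes called higher in whole libraries and in microglia-, neuron-, astrocyte- and endothelial-like cells. In the same order, 8.36%, 7.67%, 0.884%, 2.97% and 14.7% of all genes were called lower. Of 33 assembly factors and partners of the chain, 8 of 33 rose in whole libraries, 9 of 33 in microglia-like, 1 of 25 in neuron-like and 6 of 31 in endothelial-like cells with 0 lower, and 1 rose and 2 fell of 31 in astrocyte-like cells; their medians were 0.75, 0.43, 0.09, 0.46 and -0.02. Chchd2, Cyc1 (cytochrome c1), Cox14, Sdhaf1 and Higd1a were called higher in whole libraries, microglia-like and endothelial-like cells. Of the factors that copy, transcribe and process mitochondrial DNA, 2 of 22 rose in whole libraries (Tfam, which packages mitochondrial DNA, and Top1mt), 3 of 22 in microglia-like cells (Elac2, Slirp and Top1mt) and 0 of 17 in neuron-like cells. In astrocyte-like cells 1 of 16 (Tfb2m) and in endothelial-like cells 2 of 19 (Mterf3 and Mtpap) fell. The medians of this list were 0.05, -0.01, -0.10, -0.14 and -0.27 in whole libraries and in microglia-, neuron-, astrocyte- and endothelial-like cells.

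Among 10 regulators of mitochondrial biogenesis, such as Ppargc1a and Nrf1, Tfam rose in whole libraries, Gabpb1 fell in endothelial-like cells, and 0 were called in the other 3 comparisons; the medians lay between -0.34 and 0.17. Of 13 citric acid cycle genes, 4 rose in whole libraries (Fh1, Mdh2, Suclg1 and Idh3a), 5 in microglia-like and 2 in endothelial-like cells, 1 fell in neuron-like cells (Idh3g) and 0 were called in astrocyte-like cells, with medians of 0.93, 0.63, 0.15, -0.16 and -0.07. Genes of the outer membrane and mitochondrial turnover numbered 10, of which 8 rose in whole libraries, 4 in microglia-like and 4 in endothelial-like cells (with 2 lower), 0 in neuron-like cells, and 1 each way in astrocyte-like cells; the medians were 1.48, 0.81, 0.48, 0.22 and 0.18.

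Hypoxia and stress genes gave a context for these values. Of 10 hypoxia markers 6 rose and 1 fell in whole libraries, 2 of 10 rose in microglia-like cells, 1 of 4 in neuron-like cells, 1 rose and 2 fell of 7 in astrocyte-like cells, and 6 rose and 3 fell of 9 in endothelial-like cells, where Ndufa4l2 rose as well (medians 1.88, 1.01, -0.42, 0.12 and 2.18). Of 15 genes induced by tissue dissociation 9 rose in whole libraries, 8 of 15 in microglia-like, 1 of 11 in neuron-like and 2 of 10 in astrocyte-like cells, and 6 rose and 3 fell of 14 in endothelial-like cells (medians 1.91, 1.42, 0.78, 0.87 and 0.79). Of the nuclear RNAs Malat1 and Neat1, Neat1 rose in microglia-, neuron- and astrocyte-like cells, Malat1 fell in endothelial-like cells, and neither was called in whole libraries; the medians were 0.07, 0.27, 0.62, 0.77 and -1.08. Their part in the members' values was not tested. Across clusters of a library, the nuclear members' CPM had a Spearman correlation with Malat1 CPM of -0.539 (22 clusters), -0.475 (28) and -0.427 (12) in tumour library 1, tumour library 2 and the normal library, as a description of clusters that share a library and a total. The ratio of mitochondrial to nuclear members had correlations with Malat1 CPM of 0.522, 0.378 and 0.727 in the same order. For the mitochondrial members' CPM they were 0.00621, -0.182 and 0.322. These relations were not tested.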

How the data were processed

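Per the file headers, the authors made the deposited UMI count matrices with Cell Ranger 6.1.2, and per the submitters' processing notes on mm10; they hold whole-number counts per gene and cell, with 151906460, 157114723 and 15035292 UMIs.

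Cells were kept at 500 or more UMIs, 300 or more genes and at most 15% mitochondrial UMIs; Scrublet (expected rate 8%) removed doublets. Scanpy 1.11.5 clustered them (2000 variable genes, 30 components, 15 neighbours, Leiden resolution 1.0), and clusters were named from 18 marker lists. Counts were summed per library and class (50 or more cells in each library) and tested with edgeR 4.0.16 (quasi-likelihood, TMM, filterByExpr), adjusted by Benjamini-Hochberg over all genes; DESeq2 1.42.0 and other settings were alternatives. The SE printed with an edgeR log2 change is the size of that change divided by the square root of the test's F statistic. Code was tested on simulated data. CPM (UMIs in 1000000) were not divided by length, as tags come from 3′ ends. Lengths and positions came from GENCODE M21 (GRCm38), which matched all 106 members.

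Named genes are the 13 mitochondrial ones, the 5 largest called changes each way per comparison, the 3 most abundant per complex, tissue isoforms and core subunits. Members, lists and the naming rule were chosen with earlier results of these data known. Nothing says the libraries came from pooled or single mice, so the spread behind each p-value is that of the tumour pair, which may be technical.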

Additional observations from a re-analysis of the deposited data

Results flagged for a closer look

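Some quantities moved one way in both tumour libraries in one cell class and the opposite way in both tumour libraries in another; the difference between classes was not tested. The mitochondrial sum was higher in microglia-like cells (log2 difference 0.39) and lower in astrocyte-like cells (-0.38). The microglia-like value was -0.065 without the mitochondrial limit and -0.21 in cluster 4 alone. Atp5mpl had a log2 change of 0.95 in microglia-like and -1.30 in astrocyte-like cells, Uqcrb 0.98 and -0.83, and Ndufc1 0.93 in microglia-like, 1.27 in neuron-like and -0.83 in astrocyte-like cells. Atp5md had -1.02 in astrocyte-like and 0.66 in endothelial-like cells. All of these comparisons use the same normal library.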

How the results depend on the processing

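The mitochondrial limit on cells changed most. Without it, log2 differences turned sign for the mitochondrial sum in whole libraries (-1.04, from 0.52) and microglia-like cells (-0.065, from 0.39) and for the nuclear sum in neuron-like (-0.59, from 0.66) and astrocyte-like cells (-0.14, from 0.01). The ratio was then -1.92 (whole libraries), -1.01 (microglia-like), -3.13 (neuron-like), -1.68 (astrocyte-like) and -0.41 (endothelial-like). Members called lower were then 3 in whole libraries, 38 in neuron-like (0 higher) and 33 in astrocyte-like cells. With a limit of 10%, neuron-like cells had 2 lower, astrocyte-like cells 0 higher and 3 lower, and the microglia-like ratio was -0.42. Library size alone gave 39 higher and 1 lower in whole libraries, 1 lower in microglia-like and 0 and 0 in neuron-like cells. DESeq2 gave 3 and 0 in neuron-like and 0 and 4 in astrocyte-like cells. With doublets kept, 45 members were higher in neuron-like and 3 in astrocyte-like cells, and the ratio was -0.61 (microglia-like) and -0.65 (astrocyte-like). Without the filter on low counts 7 were lower in astrocyte-like cells. The microglia-like ratio was -0.45 at 1000 UMIs and -0.60 at resolution 2. In microglia cluster 4 alone, an alternative chosen after seeing the data, 18 were higher and 3 lower, the mitochondrial sum was -0.21 and the ratio -0.63. The cause was not tested.

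Leaving out each tumour library in turn leaves 1 against 1, so values only: the ratio ran from -0.59 to -0.49 (whole libraries), -0.58 to -0.54 (microglia-like), -0.99 to -0.13 (neuron-like), -0.47 to -0.29 (astrocyte-like) and -0.84 to -0.63 (endothelial-like). Endothelial-like cells were under 50 in a library with the limit of 10% or 1000 UMIs, and those were not run. No paired analysis was possible because no tumour library has a normal counterpart from the same animal.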
